A study of Homo sapiens with 4 samples.

Results

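The kinetochore is the protein assembly that joins a chromosome's centromere to spindle microtubules in mitosis, and the spindle checkpoint holds anaphase until every kinetochore is attached. The genes described here were a named list of 42 that encode its layers, the checkpoint proteins, the chromosomal passenger complex and the shugoshins. Each was taken as the array feature with its symbol, the brightest by mean where several exist, and 40 of the 42 had such a feature, 1 each, among 21448 features with 17687 distinct symbols. CENPP, a centromere network subunit, and PMF1, a MIS12 complex subunit, had no feature under their symbols and were not analysed here. Expression was measured with Affymetrix Clariom S arrays in HeyA8-MDR, an ovarian carcinoma cell line of human origin with multidrug resistance, kept in 300 ng/ml paclitaxel, a drug that stabilises spindle microtubules. There were 4 arrays, 2 titled only with the line's name, taken as the control, and 2 titled miR204. By the series' design, one group received the inhibitor of miR-204-5p and the other a control inhibitor. The treatment field lists the first for every sample, so the groups rest on the titles. The arrays titled miR204 were taken as the inhibitor group, and "with miR204" below names those arrays, not an added microRNA. Paclitaxel was in the medium of both groups. The labels give neither the time after treatment nor whether replicates were separate cultures, so a p-value here measures the spread of 4 arrays, technical or not.

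The inhibited microRNA is shown because its seed, bases 2 to 8 in capitals, is what an inhibitor of this kind keeps from pairing with target messengers. Its relative miR-211-5p has the same seed. Both are RefSeq sequences on GRCh38.p14, miR-204-5p at chr9:70810031-70810052 and miR-211-5p at chr15:31065095-31065116, each on the minus strand.
hsa-miR-204-5p: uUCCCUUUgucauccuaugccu
hsa-miR-211-5p: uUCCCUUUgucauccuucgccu
The levels of these microRNAs were not analysed here, and target sites in the members' messengers were not searched.

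A kinetochore is built from the inside outward. Nucleosomes with the histone variant CENP-A carry the constitutive centromere network, which recruits the MIS12, KNL1 and NDC80 complexes, and NDC80 with the SKA complex grips the microtubule. Unattached kinetochores gather the kinases TTK and BUB1 and the MAD proteins, which hold back CDC20, the activator of the anaphase-promoting complex, while Aurora B in the passenger complex frees wrongly attached microtubules. Most of these messengers are made in the late cell cycle, so in a culture they also follow how many cells are dividing.

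Values were lower on the miR204 arrays for most members. Of 40, 38 had a difference below 0, as did 59.5% of all features, with a median of -0.48 log2 units (miR204 minus control) against -0.07 over all features, and the 2 above 0 were MAD1L1 and ZWILCH. After quantile normalization of the deposited values, 35 were below 0 (50.6% of features) with a median of -0.282, against -0.004 over all features, and CENPI, DSN1 and MIS12 were then above 0 too. Cyclic loess gave 34 below 0 (49.6% of features), with CENPW turning as well, and a median of -0.275. For 36 members both miR204 arrays lay below both controls, as they did for 33.8% of all features. Most members are bright: of the 37 above the median level of all features, 35 were below 0 and 34 did not overlap, against 74.1% and 50.5% of the features above that level, whose median difference was -0.165. For the 4 of 40 left, CENPC, MIS12, ZWILCH and MAD1L1, the groups overlapped. After quantile normalization 29 members did not overlap, against 23.9% of features.

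No member passed an adjusted p of 0.05 in limma, in either direction (0% of all features lower and 0.0513% higher), and the members' adjusted p-values ran from 0.134 to 0.989. At an unadjusted p under 0.05, 28 members were lower and 0 higher, against 12.8% and 5.11% of all features; above the median level it was 26 of 37 lower, against 19.5%. That count was 15 after quantile normalization, against 7.1% of features, and 15 after cyclic loess, against 6.93%. It was 11 without control replicate 1, against 4.3%, and 9 without control replicate 2, against 2.72%. With a variance prior that follows expression level, 23 members passed the adjusted threshold, all lower, against 6.09% of features. With quantile normalization and that prior together 4 passed, SKA1, SKA3, CENPF and CDC20, against 1.19%. Over features above the median level 19 of 37 passed, against 8.07%, and 17 of these were among the 23. Fewer cells in mitosis and less messenger per cell cannot be told apart in these bulk samples.

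**Figure D1:**
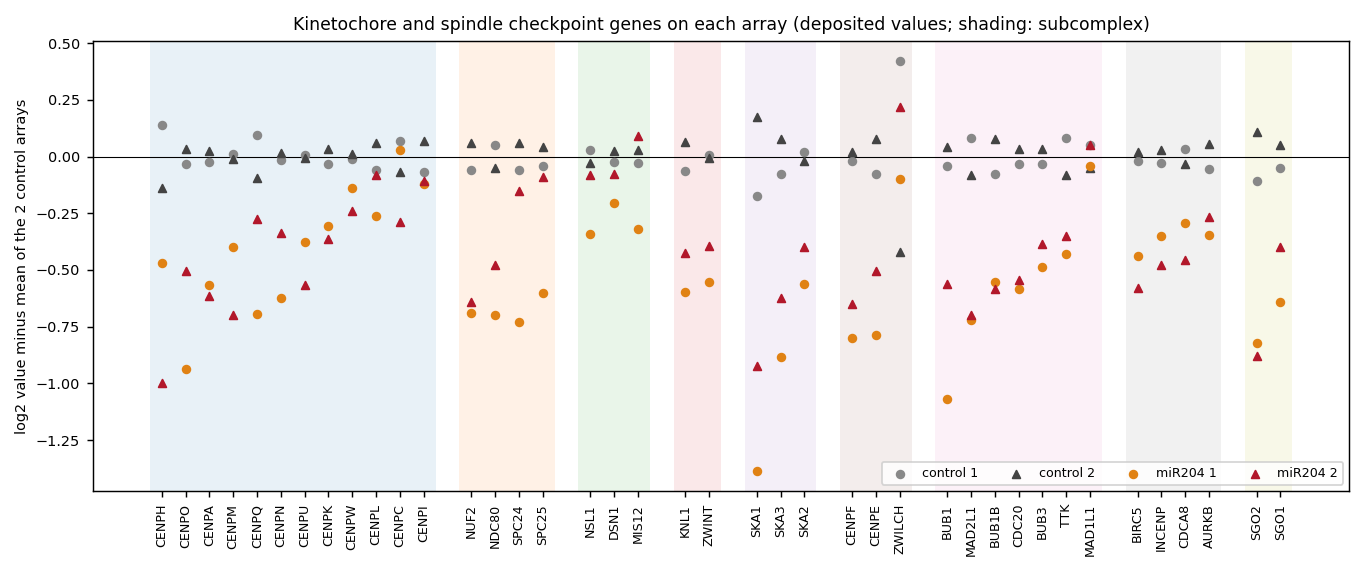
Each of the 40 measured members on the 4 arrays, as the deposited log2 value minus the mean of the 2 control arrays (y axis), ordered by subcomplex and difference (x axis, shading). Grey points are controls and coloured points miR204 arrays. For 36 members both coloured points lie below both grey ones, and SKA1 and BUB1 reach lowest on miR204 replicate 1.

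Bright features as a whole were lower on the miR204 arrays, and most members are bright. The standard deviation over features was 2.2 and 2.21 in the controls and 2.08 and 2.13 on the miR204 arrays. With all features cut into 4 level groups of equal size, their median difference was 0.075 in the dimmest, then -0.01 and -0.12, and -0.205 in the brightest. The 26 members in the brightest group had a median of -0.477, the 11 in the next -0.51 and the 3 in the one below, CENPC, CENPQ and SGO2, -0.485. After quantile normalization the medians of all features lay between -0.015 and 0.004 in the 4 groups, and the members' medians were -0.27, -0.434 and -0.459 in the same order. Array correlations over all features were 0.995 between controls, 0.986 between miR204 arrays and 0.984 to 0.989 across groups. Of 10 epithelial and ovarian carcinoma markers, 7 lay above the dimmest 25% of features, among them PAX8 and the keratins KRT7, KRT8 and KRT18. The differences of the 10 had a median of -0.28, or -0.165 after quantile normalization. In the deposited values 9 were below 0, as were 59.5% of all features. At an unadjusted p under 0.05 in limma 3 were lower, WT1 (-0.555), KRT7 (-0.4) and MUC16 (-0.385), against 12.8% of all features. The differences of 4 mesenchymal-like tumour cell markers also had a median of -0.28, or -0.088 after quantile normalization. In the deposited values VIM, CDH2 and ZEB1 were lower with no overlap, as were 33.8% of all features. FN1 was higher with none, as were 16.5%. EPCAM, MSLN and CDH1 lay within the dimmest 25%, and so did the leukocyte marker PTPRC and the endothelial receptor KDR. Most genes of those 2 lists did not: 4 of 5 measured genes of the leukocyte list and 5 of 6 endothelial genes lay above it. So did 2 of 4 fibroblast genes. The leukocyte list includes HBA1, a globin gene of red cells and not a leukocyte gene, which is counted among those 4. Differences had a median of 0.115 over the 5 genes of the leukocyte list, with HBA1 at -0.15. The median was -0.132 over 4 fibroblast genes and 0.045 over 6 endothelial genes. Of the endothelial genes CDH5, at 8.13 and 8.06 in the controls and 7.01 and 7.03 with miR204, was the lowest. The part of these markers' shifts in the members' values was not tested.

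**Figure D2:**
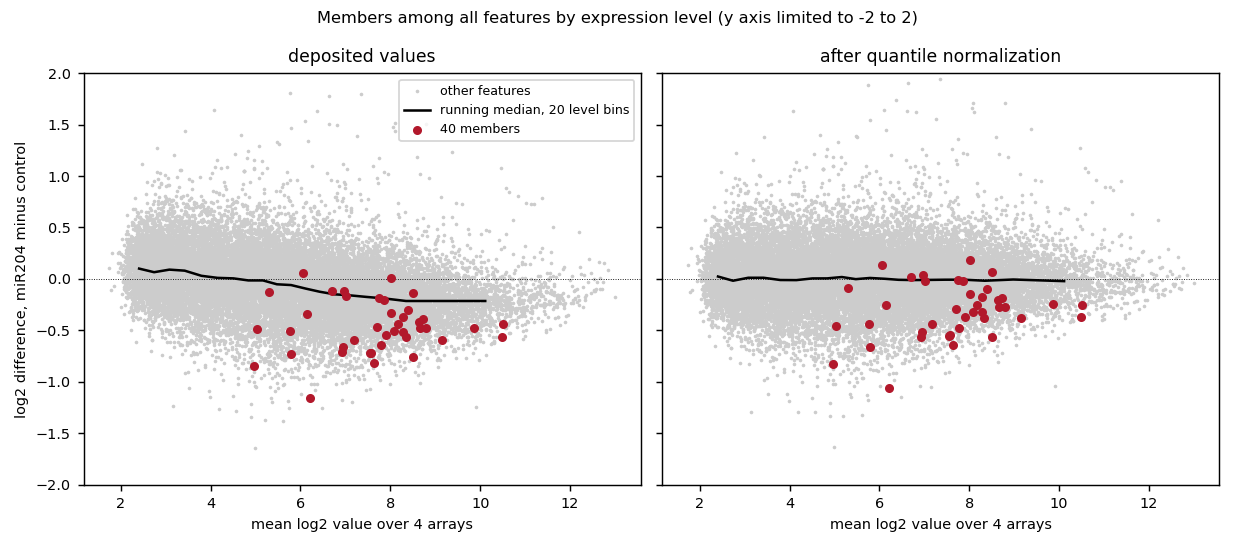
Log2 difference, miR204 minus control (y axis), against the mean log2 value over 4 arrays (x axis), for deposited values and after quantile normalization. Grey points are features, the line is their running median over 20 bins, and red points are the 40 members. The line sinks with level in the deposited values and is flat after normalization, where 35 red points stay below 0.

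Start-site sequences are shown because a larger share of the members' promoters than of all promoters held a short cell cycle motif. The motif is the cell cycle homology region, bound by the MuvB-based complexes that time late cell cycle genes, searched on both strands as TTTGAA, which reads TTCAAA from the other strand, and as its variant with the letters TTCGAA. In RefSeq windows of 300 bases on GRCh38.p14, from 250 before to 50 after a start, 20 of 37 windows of 33 matched members held it (54.1%), against 16.4% of all 35116 windows. CENPH, CENPL, CENPM, KNL1, BUB3, TTK and BIRC5 were not matched. The 125 bases from 100 before to 25 after the start follow for the member with the lowest difference among those of its subcomplex with the motif in that stretch, in the first window where a gene has several. The MIS12 complex and the outer corona had no such member. Last come ZWILCH and MAD1L1, the 2 members above 0, whose windows lack the motif. Both choices followed the differences, so the sequences shown do not compare members with and without the motif. Capitals mark the motif.
CENPA, chr2:26785956-26786080, plus strand: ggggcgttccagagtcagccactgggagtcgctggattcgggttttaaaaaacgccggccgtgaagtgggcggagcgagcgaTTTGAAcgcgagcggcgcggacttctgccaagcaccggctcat
NUF2, chr1:163321854-163321978, plus strand: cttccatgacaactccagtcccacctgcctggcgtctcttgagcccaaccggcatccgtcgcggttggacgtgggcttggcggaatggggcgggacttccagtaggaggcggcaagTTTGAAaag
ZWINT, chr10:56361235-56361359, minus strand: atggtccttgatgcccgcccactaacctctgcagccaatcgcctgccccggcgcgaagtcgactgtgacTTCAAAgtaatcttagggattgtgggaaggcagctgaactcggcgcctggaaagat
SKA3, chr13:21176528-21176652, minus strand: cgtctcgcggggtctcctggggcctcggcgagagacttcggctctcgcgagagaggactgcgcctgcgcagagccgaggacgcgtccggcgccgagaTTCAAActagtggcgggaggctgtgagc
BUB1, chr2:110678039-110678163, minus strand: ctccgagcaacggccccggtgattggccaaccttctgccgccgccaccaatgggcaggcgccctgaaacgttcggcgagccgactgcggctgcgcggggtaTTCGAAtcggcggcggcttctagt
INCENP, chr11:62123911-62124035, plus strand: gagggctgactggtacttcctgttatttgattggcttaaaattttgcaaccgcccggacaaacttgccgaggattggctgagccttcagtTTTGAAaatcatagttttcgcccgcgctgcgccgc
SGO1, chr3:20186182-20186306, minus strand: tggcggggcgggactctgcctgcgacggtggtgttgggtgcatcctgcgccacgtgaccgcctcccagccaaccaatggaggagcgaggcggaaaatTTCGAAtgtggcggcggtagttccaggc
ZWILCH, chr15:66505226-66505350, plus strand: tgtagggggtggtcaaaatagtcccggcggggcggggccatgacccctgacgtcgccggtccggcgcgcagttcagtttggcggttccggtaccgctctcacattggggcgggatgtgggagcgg
MAD1L1, chr7:2232921-2233045, minus strand: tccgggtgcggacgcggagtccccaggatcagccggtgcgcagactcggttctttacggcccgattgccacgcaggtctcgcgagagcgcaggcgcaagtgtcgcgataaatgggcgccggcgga

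In these stretches the motif began 31 bases before the start in ZWINT, 18 before in CENPA, 10 before in INCENP, 3 before in SKA3 and SGO1, and after the start in BUB1 and NUF2. The 19 matched members with the motif anywhere in their windows had differences from -1.155 to -0.13, with a median of -0.57. The 14 without it ranged from -0.85 to 0.06, with a median of -0.32. The ranges overlap: SGO2 and CENPE lack the motif and had low differences, while CENPC and CENPW hold it and differed by -0.13 and -0.19. After quantile normalization the medians were -0.376 with and -0.126 without. The CCAAT box, the letters CCAAT that NF-Y binds, stood in 26 of the 37 windows (70.3%) against 34.6% of all, and members with it had a median of -0.472 against -0.59 without. E2F letters, searched as TTCCCGC, as well as TTGGCGC, further as TTCGCGC, and lastly as TTGCCGC, stood in 12 windows (32.4%) against 13% of all, with medians of -0.482 and -0.44. The letters of different motifs may overlap, and these counts describe letters in a window, not bound sites.

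The SKA complex, a trimer that helps NDC80 stay on a shortening microtubule end, had the lowest median of the 9 subcomplexes, -0.755. After quantile normalization it was -0.565, and that of the shugoshins was -0.574. SKA1, its microtubule-binding subunit, read 6.62 and 6.97 in the controls and 5.41 and 5.87 on the miR204 arrays. The groups stood well apart, and the difference was -1.155 (SE 0.209, 95% interval -1.653 to -0.657), a level 2.23-fold lower, with an adjusted p of 0.134 over all features. SKA3, a subunit that CDK1 phosphorylates to dock on NDC80, read 8.81 and 8.96, then 8.0 and 8.26, a difference of -0.755 (SE 0.161). SKA2, the remaining subunit, read 10.13 and 10.09, then 9.55 and 9.71, a difference of -0.48 (SE 0.146). Both miR204 arrays lay below both controls for all 3 subunits, all above the median level. The same held for 33.8% of all features and 50.5% of those above that level. With the level-following prior all 3 passed the adjusted threshold in limma, against 6.09% of all features. With quantile normalization as well SKA1 (adjusted p = 0.0182) and SKA3 (0.0189) did, against 1.19%.

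The NDC80 complex is a rod of 4 subunits whose NDC80 and NUF2 heads bind the microtubule and whose SPC24 and SPC25 ends face the chromosome. NUF2 read 7.22 and 7.34 in the controls and 6.59 and 6.64 with miR204, a difference of -0.665 (SE 0.143). NDC80 read 9.5 and 9.40, then 8.75 and 8.97, a difference of -0.59 (SE 0.153). Both heads were low on each miR204 array. The other pair depended on the array: SPC24 read 8.33 and 8.45, then 7.66 and 8.24, and SPC25 6.27 and 6.35, then 5.71 and 6.22. On miR204 replicate 2 they lay within 0.15 of the control means. Their differences were -0.44 (SE 0.212) and -0.345 (SE 0.197), with intervals that include 0. The complex had a median of -0.515, which was -0.315 without miR204 replicate 1 and -0.695 without miR204 replicate 2.

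The MIS12 complex, which links the centromere network to NDC80 and KNL1, lay closest to the controls. MIS12 read 6.73 and 6.79 in the controls and 6.44 and 6.85 with miR204, so the groups overlapped. DSN1 read 8.56 and 8.61, then 8.38 and 8.51, and NSL1 7.99 and 7.93, then 7.62 and 7.88. Differences were -0.115 (SE 0.178), -0.14 (SE 0.144) and -0.21 (SE 0.156), with an interval for NSL1 of -0.582 to 0.162. The median of -0.14 was 0.018 after quantile normalization and 0.024 after cyclic loess, so its direction is not settled, and it was -0.32 without miR204 replicate 2. KNL1, the scaffold that TTK phosphorylates to recruit the BUB proteins, read 5.96 and 6.09, then 5.43 and 5.60, a difference of -0.51 (SE 0.15). Its partner ZWINT, a coiled-coil protein, read 9.04 and 9.03, then 8.48 and 8.64, a difference of -0.475 (SE 0.145). Neither overlapped between groups.

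**Figure D3:**
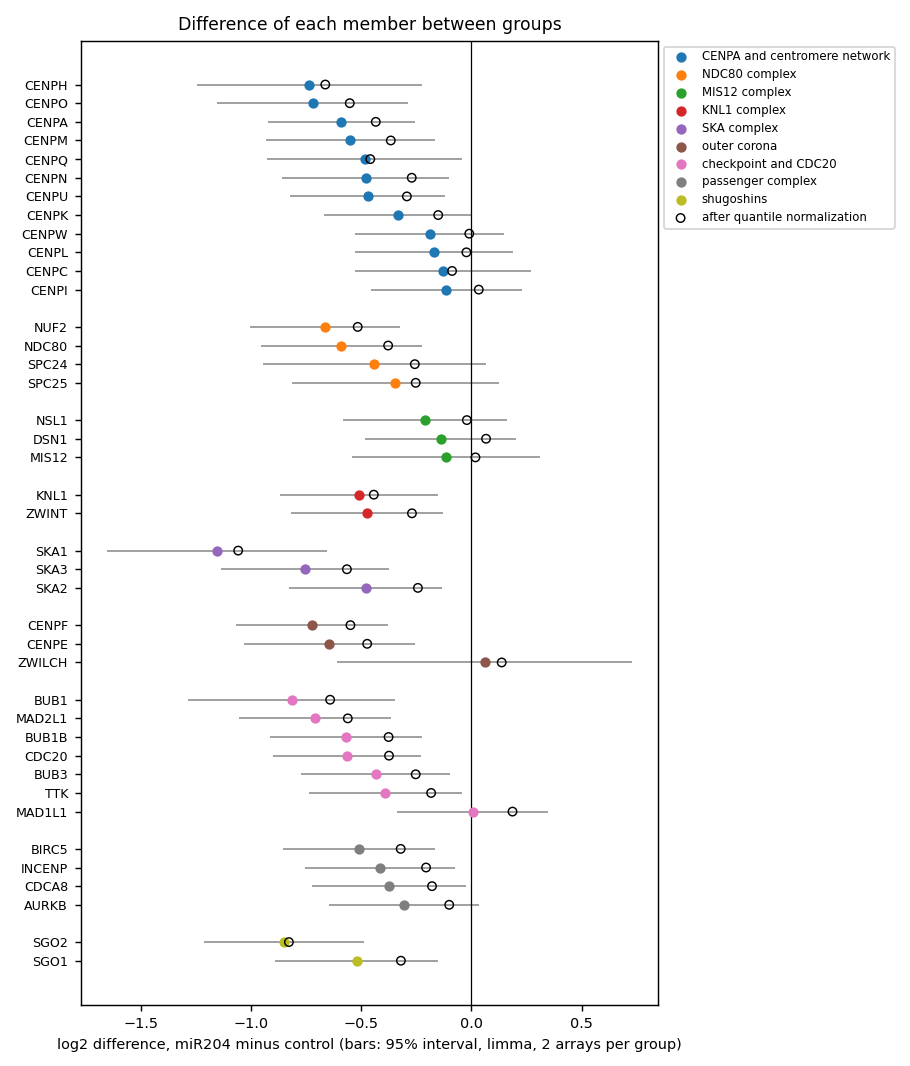
Log2 difference of each member, miR204 minus control (x axis), by gene (y axis), with 95% intervals from limma over 2 arrays per group. Filled points are deposited values coloured by subcomplex and open points are values after quantile normalization. SKA1 lies lowest at -1.155, and the 3 MIS12 complex genes lie at -0.21 or above.

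Among 12 measured genes of the centromeric nucleosome and its network, all 12 were below 0 in the deposited values, with a median of -0.475 (-0.282 after quantile normalization, with CENPI above 0). CENPA, the histone variant that marks the centromere, read 7.45 and 7.50 in the controls and 6.91 and 6.86 with miR204, a difference of -0.59 (SE 0.14, 1.51-fold lower). CENPC, which binds that nucleosome and the MIS12 complex, read 5.44 and 5.30, then 5.40 and 5.08. It overlapped between groups, with a difference of -0.13 (SE 0.168, interval -0.529 to 0.269), and was 0.03 above the controls without miR204 replicate 2.

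The HIKM subgroup of the network was uneven. CENPH read 6.29 and 6.01 in the controls and 5.68 and 5.15 with miR204, the lowest difference of the 12 at -0.735, with a wide SE of 0.214. CENPM read 8.18 and 8.16, then 7.77 and 7.47, a difference of -0.55 (SE 0.161). CENPK read 8.14 and 8.21, then 7.87 and 7.81, a difference of -0.335 (SE 0.141). CENPI, from the same subgroup, read 6.96 and 7.10, then 6.91 and 6.92, a difference of -0.115 (SE 0.144). The interval of CENPI, -0.457 to 0.227, includes 0, and its difference turned to 0.033 after quantile normalization.

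CENPN, which reads the CENP-A nucleosome, read 8.88 and 8.91 in the controls and 8.27 and 8.56 with miR204, while its partner CENPL read 7.04 and 7.16, then 6.84 and 7.02. The differences were -0.48 (SE 0.159) and -0.17 (SE 0.15). In the OPQU subgroup CENPO read 7.87 and 7.94, then 6.97 and 7.40, a difference of -0.72 (SE 0.182). CENPU, which docks the kinase PLK1, read 7.94 and 7.93, then 7.56 and 7.37 (-0.47, SE 0.148). CENPQ read 5.37 and 5.18, then 4.58 and 5.00 (-0.485, SE 0.187). The 3 measured genes of that subgroup were therefore low on both miR204 arrays. CENPW, a histone-fold subunit, read 7.84 and 7.86, then 7.71 and 7.61, a difference of -0.19 (SE 0.141) that was 0 after cyclic loess.

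The outer corona is the fibrous layer that spreads on unattached kinetochores. CENPF, a large coiled-coil protein made in G2, read 7.91 and 7.95 in the controls and 7.13 and 7.28 with miR204. The difference of -0.725 (SE 0.145, interval -1.07 to -0.38) was 1.65-fold lower and -0.549 after quantile normalization. The kinesin CENPE, which carries chromosomes to the spindle equator, read 8.03 and 8.18, then 7.32 and 7.60, a difference of -0.645 (SE 0.163). ZWILCH, a subunit of the complex that brings MAD1 and dynein to kinetochores, read 6.44 and 5.60, then 5.92 and 6.24. Its controls lay farther apart than the group means did, so its difference of 0.06 (SE 0.281, interval -0.608 to 0.728) has no settled direction: it was -0.36 without control replicate 2.

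Of 7 checkpoint genes, all above the median level, 6 were lower with no overlap, against 33.8% of all features and 50.5% of those above that level, and MAD1L1 was the exception. The median was -0.565, or -0.374 after quantile normalization. BUB1, the kinase that also marks centromeric chromatin for the passenger complex, read 8.0 and 8.08 in the controls and 6.97 and 7.48 with miR204, a difference of -0.815 (SE 0.197, 1.76-fold lower). MAD2L1, the protein that changes shape to capture CDC20, read 7.37 and 7.21, then 6.57 and 6.59, a difference of -0.71 (SE 0.145). MAD1L1, the template on which MAD2 changes shape, read 8.06 and 7.96, then 7.97 and 8.06, a difference of 0.005 (SE 0.143, interval -0.336 to 0.346). The partners thus had intervals that do not overlap, although no test compared them.

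BUB1B, the pseudokinase BUBR1 of the inhibitory complex, read 8.55 and 8.70 in the controls and 8.07 and 8.04 with miR204, a difference of -0.57 (SE 0.145). BUB3, which tethers both BUB proteins to KNL1, read 10.70 and 10.77, then 10.25 and 10.35 (-0.435, SE 0.142). TTK, the kinase that starts checkpoint signalling, read 9.01 and 8.85, then 8.50 and 8.58 (-0.39, SE 0.147). These 3 differences were smaller than that of BUB1, but in the deposited values all were larger than the distance between replicates. After quantile normalization they were -0.376 for BUB1B, -0.253 for BUB3 and -0.183 for TTK. The TTK controls then read 8.932 and 8.719, farther apart than its group means. CDC20, the protein the checkpoint restrains, read 10.73 and 10.80, then 10.18 and 10.22, a difference of -0.565 (SE 0.14, 1.48-fold lower). Its adjusted p of 0.166 became 0.00335 with the level-following prior and 0.0143 with quantile normalization and that prior.

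The chromosomal passenger complex had a median of -0.395, and -0.192 after quantile normalization, with all 4 genes below 0 in both. BIRC5, also called survivin, which binds phosphorylated histone at centromeres, read 8.31 and 8.35 in the controls and 7.89 and 7.75 with miR204, a difference of -0.51 (SE 0.144). INCENP, the scaffold, read 8.82 and 8.88, then 8.50 and 8.37, and CDCA8, also called borealin, 8.51 and 8.44, then 8.18 and 8.02. Their differences were -0.415 (SE 0.144) and -0.375 (SE 0.146). AURKB, the kinase of the complex, read 8.50 and 8.61, then 8.21 and 8.29, the smallest difference of the 4 at -0.305 (SE 0.143, interval -0.646 to 0.036).

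The shugoshins shield cohesin at centromeres from early removal. SGO2 read 5.28 and 5.50 in the controls and 4.57 and 4.51 with miR204, a difference of -0.85 (SE 0.152, 1.8-fold lower, adjusted p = 0.134). It was among the dimmer members, and its difference hardly moved after quantile normalization (-0.828). SGO1 read 8.49 and 8.59, then 7.90 and 8.14, a difference of -0.52 (SE 0.155), or -0.32 after quantile normalization. Neither gene overlapped between groups.

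**Figure D4:**
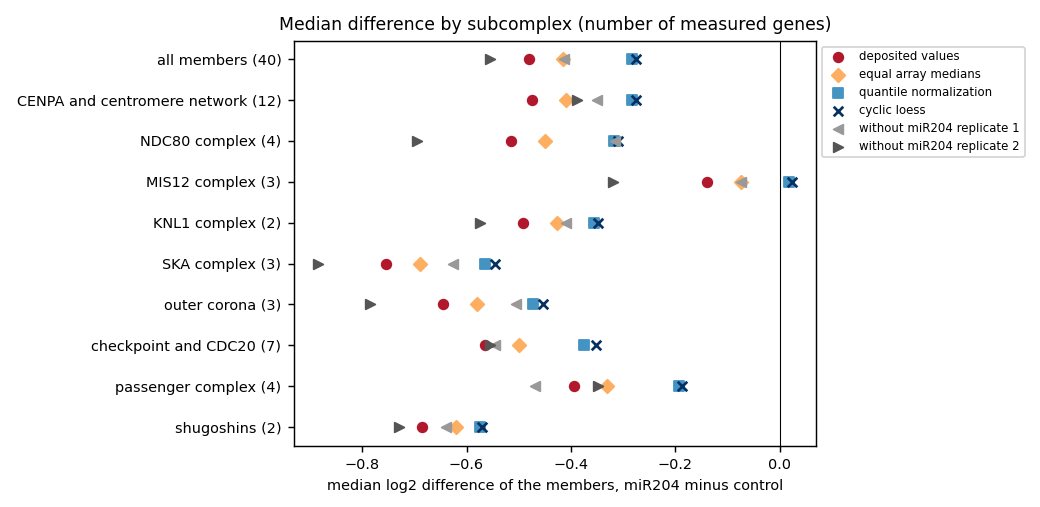
Median log2 difference, miR204 minus control (x axis), over the measured genes of each subcomplex (y axis, number of genes in brackets), under 4 scalings and without each miR204 array. The SKA complex and the shugoshins lie lowest after quantile normalization, at -0.565 and -0.574. The MIS12 complex lies at -0.14 in the deposited values and above 0 after quantile normalization or cyclic loess.

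The miR204 arrays differed from each other more than the controls did. Over the members the median of replicate 2 minus replicate 1 was 0.115 for miR204 and 0.055 for the control, against 0.02 and 0.04 over all features. Replicate 1 was the lower miR204 array for 28 of 40 members. It was lower for all members of the NDC80, MIS12, KNL1 and SKA complexes and the outer corona, and for 6 of 7 checkpoint genes, but for 1 of 4 passenger genes and 5 of 12 centromere network genes. The members' median was -0.413 without miR204 replicate 1 and -0.555 without miR204 replicate 2.

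Genes around the kinetochore in the same pathway are read against the shares of all features, 59.5% below 0 and 12.8% lower at an unadjusted p under 0.05, and of features above the median level, 74.1% and 19.5%. Of 21 other measured kinetochore and centromere genes, 20 were below 0 (median -0.39, -0.257 after quantile normalization) and 10 had an unadjusted p under 0.05, all lower; above the median level these were 19 of 19 and 9 of 19. SPAG5, a spindle protein also called astrin, differed by -0.89 (SE 0.167), HJURP, the chaperone that loads CENP-A, by -0.745 (SE 0.149), and MIS18A, which licenses that loading, by -0.695 (SE 0.146). HJURP read 10.40 and 10.58 in the controls and 9.70 and 9.79 with miR204, so the loader and its cargo CENPA were both low on both arrays. In the anaphase-promoting complex with its E2 enzymes and regulators, 15 of 18 were below 0 (median -0.28, -0.096 after quantile normalization) and 4 had an unadjusted p under 0.05, all lower. Above the median level these were 15 and 4 of 17, and the count of 4 is near the share of such features, 19.5%. FBXO5, an inhibitor of that complex also called EMI1, differed by -0.935 (SE 0.152), and the subunits ANAPC15 and ANAPC13 by -0.67 (SE 0.145) and -0.48 (SE 0.14).

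All 12 measured genes of cohesin, separase and securin were below 0 in the deposited values (median -0.328, -0.151 after quantile normalization), and 6 had an unadjusted p under 0.05, all lower, with all 12 genes above the median level. The cohesin subunits STAG1, SMC1A and SMC3 differed by -0.66 (SE 0.143), -0.48 (SE 0.142) and -0.515 (SE 0.16). Of 11 regulators of mitotic transcription, all were below 0 in the deposited values (median -0.27, -0.116 after quantile normalization), and 3 had an unadjusted p under 0.05, all lower; above the median level these were 10 and 3 of 10, and 3 is near the share of 19.5%. The 3 were MYBL2, also called B-MYB, at -0.52 (SE 0.154), the MuvB subunit LIN9 at -0.56 (SE 0.18) and E2F4 at -0.47 (SE 0.157). In these 4 lists 0 genes passed an adjusted p of 0.05 in limma in either direction. With the level-following prior 4, 3, 4 and 2 genes of the lists passed, in the order given here, all lower, against 6.09% of all features.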

How the data were processed

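Total RNA from 4 samples was hybridised to 1-colour arrays. The authors deposited log2 expression values. The submitters' processing notes name RMA, which corrects background, equalises array distributions and summarises probes, and Transcriptome Analysis Console 4.0. Its parameters and a genome build are not given in the sources used here. The log2 values ran from 1.61 to 13.1. Their distributions still differed between arrays, with medians of 5.59 to 5.68 and standard deviations of 2.08 to 2.21. Signal over background was not analysed here, and the number of arrays limits the precision. Symbols are those of the platform annotation (17709 features with 1 symbol, 0 with several, 3739 with none).

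The miR204 and control groups were set against each other in limma 3.58.1 under R 4.3.3 (lmFit and eBayes, 2 residual and 4.78 prior degrees of freedom) over all features, with Benjamini-Hochberg adjustment and a threshold of 0.05. SEs and intervals are those of limma. An exact permutation of 2 against 2 arrays cannot give a p below 0.333, so none was run. The fit was checked on simulated data, with planted changes larger than most members' differences and a spread that did not follow expression level. That check therefore does not bear on the choice of prior. The members, lists and tests were chosen with earlier results of these data known, and no list was tested as a set. Named genes were all members and the 3 genes per pathway list with the largest moderated statistic. Other settings were a level-following or robust prior, the replicate number as a block, 3 rescalings, filters on dim features and leaving out each array. Same-numbered arrays did not deviate together (correlation 0.006).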

Additional observations from a re-analysis of the deposited data

How the results depend on the processing

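All 14 settings gave 0 members higher at an adjusted p of 0.05. The count of members lower was 0 in all but 3 of them: 23 with the level-following prior, 4 with that prior after quantile normalization and 19 over features above the median level. At an unadjusted p under 0.05 the 28 lower members became 15 after both quantile normalization and cyclic loess, and 9 to 27 with 1 array left out. The share of all features passing also changed with the array left out, so these 9 to 27 cannot be read against each other. The members' median difference was -0.555 to -0.413 in those fits, against -0.09 to -0.055 over all features. With the replicate number as a block, 25 members were lower at an unadjusted p under 0.05, against 10.7% of all features. In the main fit and with the block alike, 0 members passed the adjusted threshold. Same-numbered arrays share only a number here.

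The members' median was -0.415 with equal array medians, -0.282 after quantile normalization (with or without the level-following prior), -0.275 after cyclic loess and -0.555 to -0.413 with 1 array left out. Quantile normalization (again with or without that prior) gave medians of -0.282 for the centromere network, -0.317 for NDC80, 0.018 for MIS12, -0.356 for KNL1, -0.565 for SKA, -0.473 for the corona, -0.374 for checkpoint genes, -0.192 for the passenger complex and -0.574 for shugoshins. Cyclic loess gave -0.275, -0.309, 0.024, -0.348, -0.546, -0.454, -0.352, -0.187 and -0.571 in that order. With equal array medians the network was at -0.41, the checkpoint genes at -0.5 and the passenger complex at -0.33. Over features above the median level the shugoshin median was that of SGO1, -0.52. With 1 array left out, medians ranged over -0.47 to -0.35 for the centromere network, -0.695 to -0.315 for NDC80, -0.32 to -0.075 for MIS12, -0.575 to -0.41 for KNL1, -0.885 to -0.625 for SKA. They ranged over -0.785 to -0.505 for the corona, -0.6 to -0.495 for checkpoint genes, -0.468 to -0.348 for the passenger complex, -0.765 to -0.605 for shugoshins. For the lists around the kinetochore they ranged over -0.39 to -0.305 for other kinetochore genes, -0.325 to -0.21 for the anaphase-promoting complex, -0.368 to -0.285 for cohesin genes, -0.335 to -0.245 for transcription regulators.

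Other kinetochore genes, the anaphase-promoting complex, cohesin genes and transcription regulators had 4, 3, 4 and 2 genes lower at the adjusted threshold with the level-following prior (6.09% of all features), 2, 2, 1 and 0 with that prior after quantile normalization (1.19%), and 3, 3, 2 and 1, of 19, 17, 12 and 10 tested, over features above the median level (8.07%). The transcription regulators' 0 and 1 lie near those shares. Their medians were -0.257, -0.096, -0.151 and -0.116 after quantile normalization (with or without that prior) and -0.232, -0.083, -0.144 and -0.112 after cyclic loess. With equal array medians they were -0.325, -0.215 and -0.262 for the first 3.

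Single genes changed sign as follows. CENPI was 0.033, DSN1 0.066 and MIS12 0.018 after quantile normalization (with or without the level-following prior), and 0.04, 0.069 and 0.024 after cyclic loess, where CENPW was 0. With 1 array left out, CENPC ranged from -0.29 to 0.03, MIS12 from -0.32 to 0.09, ZWILCH from -0.36 to 0.48 and MAD1L1 from -0.045 to 0.055. The causes were not tested. A fit without 1 array has fewer degrees of freedom, which bears on its p-values and not on the differences.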
